A study of Homo sapiens with 6 samples.

Results

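The 43 genes described here encode the presynaptic machinery of vesicle release, and they were taken by gene symbol from a table of 59151 genes. They fall into 6 roles: 6 calcium sensors and their relatives, 8 genes of the SNARE fusion machinery, 12 vesicle proteins, 10 active zone scaffolds and priming factors, 5 genes of vesicle endocytosis and 2 presynaptic adhesion receptors. All 43 symbols were found, and 33 of them passed the filter on low values, a mean of at least 1 FPKM over all libraries. Expression was measured by ribosomal RNA-depleted RNA-seq in forebrain neuron progenitor cells at day 26, differentiated from the H9 line of human embryonic stem cells. The cells carried shRNA2 or shRNA1, a pair of hairpins that target circRTN4(2,3), which is a circular product of RTN4 transcripts, or a scramble hairpin as control. The labels give the genotype as circRTN4(2,3) knockdown for both hairpin groups and as WT for scramble, and each of the 3 groups holds 2 libraries. The series was made to study what circRTN4(2,3) does in these cells. Whether the 2 libraries of a group came from separate cultures is not stated, so each p-value reflects only how far those libraries lie apart, which may be technical spread alone.

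Synaptic vesicles fuse with the plasma membrane when a vesicle SNARE protein (VAMP) zips up with its partners at the membrane (syntaxin and SNAP25), a step that synaptotagmins couple to calcium entry. Scaffolds of the active zone hold vesicles close to calcium channels and prime them for fusion, complexins clamp and facilitate the primed complexes, and the membrane is then taken back by clathrin- and dynamin-dependent endocytosis. In the developing forebrain these genes are switched on as progenitors leave the cell cycle and become neurons, before mature synapses form, and many are held silent outside neurons by the repressor REST, which binds an element called RE1.

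SYT4 and SYN1 show what the upstream sequence of these genes looks like. SYT4 had the widest change of any of the 33 tested genes, and SYN1 is the one gene of the 36 with a start-site window in RefSeq that held both an RE1 and a CRE, the cyclic AMP response element. Both lines are written 5′ to 3′ on the gene's own strand from RefSeq (GRCh38.p14), start 250 bases before the annotated start and stop before the first exon base of any GENCODE v29 transcript. The SYT4 stretch is chr18:43277651-43277740 and the SYN1 stretch chrX:47619944-47620107, both on the minus strand, and capitals mark the motif letters.
SYT4 upstream: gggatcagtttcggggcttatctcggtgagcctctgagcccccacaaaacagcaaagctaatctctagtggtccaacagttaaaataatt
SYN1 upstream: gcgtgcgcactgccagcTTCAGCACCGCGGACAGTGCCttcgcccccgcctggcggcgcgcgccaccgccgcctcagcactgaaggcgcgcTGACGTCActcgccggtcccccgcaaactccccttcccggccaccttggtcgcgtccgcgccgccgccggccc

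The search covered both strands of 35116 RefSeq windows, each from 250 bases before to 50 bases after a start. The RE1 core (CAGCACC, any 2 bases, then GGACAG) was in 0.0513% of all windows, and among the members in those of SYN1 and RPH3A. The left arm of RE1 (TTCAGCACC), which overlaps the core, was in 0.376% of windows, and the right arm (GGACAG, any base, then GCC), which also overlaps it, in 0.846%; each arm was found in the windows of SYN1 and UNC13A. In SYN1 the core lay at -231 to -217 from the start. The CRE (TGACGTCA) was in 1.85% of windows and, among the members, in that of SYN1 alone, at -159 to -152. The SYT4 window held none of these letters. A match says only that the letters are there, and binding was not measured.

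Library totals recovered from the FPKM values (fragments normalised to gene length and library size) were 79949303 and 83629504 reads for shRNA2, 78488667 and 82353637 for shRNA1, and 46634855 and 77187298 for scramble. For a gene of 1 kb, 3 reads correspond to 0.0359 to 0.0643 FPKM, which covers counting error only. RTN4, the host gene, stood at 31.2 and 31.3 FPKM in shRNA2 libraries, 34.2 and 34.7 in shRNA1 libraries, and 40.3 and 38.5 in scramble libraries. For the mean of both hairpins against scramble RTN4 changed by -0.26 (adjusted p = 0.135), or by -0.20 with the GC trend removed (adjusted p = 0.0064). That value counts linear and circular RTN4 RNA together, and the circular RNA itself was not measured. The scramble libraries stood apart from each other: the median SD of the 33 tested members between replicates, on the log2(FPKM + 1) scale, was 0.0261 for shRNA2, 0.0138 for shRNA1 and 0.101 for scramble. The model used a single spread per gene for all 3 groups, so the scramble libraries also entered the error of shRNA2 against shRNA1. Across the members, the difference between the scramble libraries followed transcript GC content, with a Spearman correlation of 0.85 over 33 genes and of 0.87 over 10062 protein-coding genes; this is a description across genes of a single pair of libraries. GC-rich members such as NRXN2 and BSN were higher in scramble replicate 2, and GC-poor ones such as STXBP5 and PCLO were lower. Beside each result of the fit to the deposited values, a fit with each library's GC trend removed is therefore given. It was added after the data had been seen, and its GC step also re-centred each library. With that fit the median SD of the members was lower in shRNA2 libraries (0.0171) and scramble libraries (0.0454) and higher in shRNA1 libraries (0.0172).

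**Figure D1:**
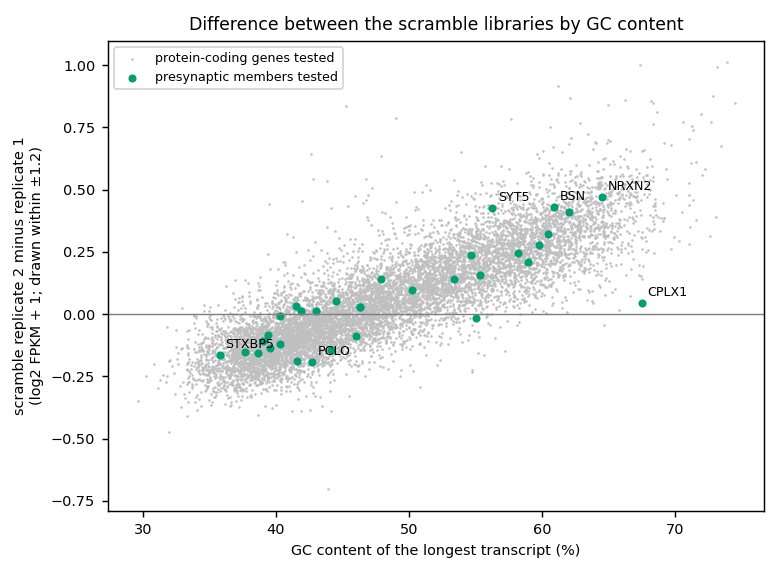
Difference between the scramble libraries (replicate 2 minus replicate 1, log2 FPKM + 1, vertical axis) against GC content of the longest transcript (percent, horizontal axis), with 1 point per gene. The presynaptic genes (green) follow the slope of the other protein-coding genes (grey); NRXN2, BSN and SYT5 lie high at the GC-rich end, STXBP5 and PCLO lie below 0 at the GC-poor end, and CPLX1 stays near 0.

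The cells expressed neuron markers at high levels: STMN2 stood at 96.8 and 98.7 FPKM in shRNA2 libraries, 110 and 113 in shRNA1 libraries, and 103 and 99.4 in scramble libraries. RBFOX3, a marker of mature neurons, was at 0.44 to 0.71 FPKM in the 6 libraries. Progenitor markers were present too, SOX2 at 28.6 to 32.7 FPKM. Markers of other cells were in part absent and in part expressed. Of 8 astrocyte genes, GFAP, AQP4, ALDH1L1 and GJB6 lay under 0.1 FPKM in every library, as did AIF1, CX3CR1 and PTPRC of 5 microglia genes. The remaining microglia genes were higher, P2RY12 at 0.507 to 0.826 FPKM and CSF1R at 0.189 to 0.246 FPKM. The astrocyte list also holds SLC1A2, at 5.98 to 7.29 FPKM in the 6 libraries, and GJA1, at 5.40 and 5.59 FPKM in shRNA2 libraries, 3.86 and 3.86 in shRNA1 libraries, and 11.1 and 10.4 in scramble libraries. The 8 astrocyte genes summed to 12.2 and 12.3 FPKM in shRNA2 libraries, 12 and 11.8 in shRNA1 libraries, and 18.3 and 17.7 in scramble libraries. Of 7 choroid plexus genes, none lay under 0.1 FPKM in every library, and their sum was 15.8 and 16.6 FPKM in shRNA2 libraries, 13.2 and 13.4 in shRNA1 libraries, and 20.2 and 21.5 in scramble libraries. OTX2 gave most of that sum, at 14.1 and 14.7 FPKM in shRNA2 libraries, 11.0 and 10.8 in shRNA1 libraries, and 11.2 and 11.8 in scramble libraries. It was thus higher in shRNA2 than in scramble libraries, against the direction of the sum. TTR stood at 0.0577 and 0.0632 FPKM in shRNA2 libraries, 0.497 and 0.785 in shRNA1 libraries, and 6.03 and 6.63 in scramble libraries. Both sums were lower without overlap in each hairpin group than in scramble libraries, and their part in the members' differences was not tested.

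In order of level, VAMP2 came first among the 43 genes, and 5 of them lay above 10 FPKM in shRNA1 libraries. VAMP2, the vesicle SNARE of fast release in the forebrain, stood at 17.2 and 16.5 FPKM in shRNA2 libraries, 21.8 and 21.2 in shRNA1 libraries, and 17.99 and 19.96 in scramble libraries. The scramble means that followed were 14.1 FPKM for SYT11, 12.2 ± 1.79 for RAB3A, 12.1 ± 1.52 for SV2A and 10.5 ± 1.06 for SYT1 (SD, n = 2), and the last 3 did not differ beyond their spread. The middle of the list was dense: 8 genes lay between SYP (6.38 ± 0.751 FPKM) and BSN (4.18 ± 1.09 FPKM; SD, n = 2), and no gene in this stretch differed from its neighbour in the order beyond their spread. At the low end, SLC17A7, the vesicular glutamate transporter of mature cortical neurons, stood at 0.0278 and 0.0312 FPKM in shRNA2 libraries, 0.0444 and 0.0402 in shRNA1 libraries, and 0.0321 and 0.0431 in scramble libraries, about 9 to 22 reads in a library.

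Several gene pairs differed widely in level, and the same member of each pair was higher in all 6 libraries. SLC17A6, the vesicular glutamate transporter of early and subcortical neurons, had 33.7 to 60.2 times the FPKM of SLC17A7. SV2A had 114 to 163 times the FPKM of SV2B, and VAMP2 had 20.1 to 31.6 times that of VAMP1. Other pairs were close: RIMS2 stood at 1.35 to 1.52 times RIMS1, and UNC13A at 1.46 to 1.8 times UNC13B. PCLO and BSN, 2 large scaffolds of the active zone, changed order within scramble, where their ratio was 1.61 in replicate 1 and 0.948 in replicate 2.

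**Figure D2:**
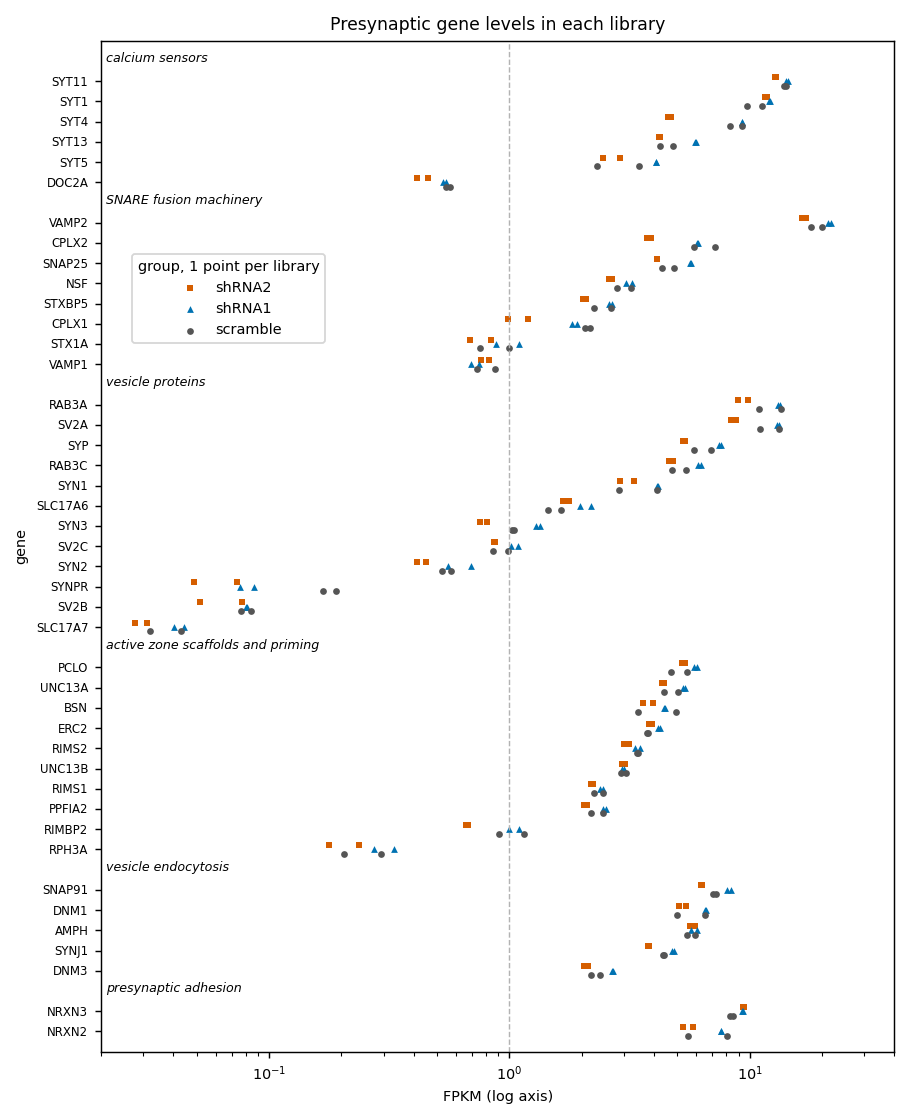
FPKM of all 43 presynaptic genes in each library (log axis, 1 point per library), grouped by role and ordered by mean within a role; the dashed line is at 1 FPKM. VAMP2, SYT11, RAB3A, SV2A and SYT1 lie furthest right, SYNPR, SV2B and SLC17A7 furthest left, and the shRNA2 squares lie left of the shRNA1 triangles for most genes.

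Most of these genes were lower in shRNA2 cells than in shRNA1 cells, with scramble cells between them. The summed FPKM of all 43 genes was 173 and 168 in shRNA2 libraries, 216 and 216 in shRNA1 libraries, and 188 and 202 in scramble libraries, with no overlap between any pair of groups. The median log2 fold change of the 33 tested members was -0.12 in shRNA2 against scramble cells, 0.14 in shRNA1 against scramble cells and -0.27 in shRNA2 against shRNA1 cells. Over all 10113 tested protein-coding genes the same medians were -0.09, -0.01 and -0.08, and over all 18162 tested genes they were -0.06, 0.00 and -0.06. Bulk RNA cannot tell fewer neurons from less of these RNAs in each neuron.

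With limma on log2(FPKM + 1) and Benjamini-Hochberg adjustment across the 18162 tested genes, 1 member passed an adjusted p of 0.05: SYT4, lower in shRNA2 against scramble cells. In that comparison 0.44% of all tested genes were called lower and 0.187% higher. No member was called higher there, and none in the other comparisons, in either direction. The background there was 0.00551% higher and 0.0771% lower for the mean of both hairpins against scramble, and 0% higher and 0.033% lower for shRNA1 against scramble. It was 0% in both directions for shRNA2 against shRNA1, so in that comparison the rule called no gene at all. Leaving out either scramble library added calls in shRNA2 against shRNA1 and in shRNA2 against scramble cells, among members and among all tested genes. When any shRNA1 or shRNA2 library was left out instead, no member was called in these comparisons. Each such fit leaves 1 library in a group, so only medians of the members are given. For shRNA2 against shRNA1 cells they were -0.269 without either scramble library and -0.275 to -0.252 without a hairpin library. For shRNA2 against scramble cells they were -0.147 and -0.114 without scramble replicates 1 and 2. Without a hairpin library they were -0.145 to -0.115 there.

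At an unadjusted p under 0.05, 20 members (60.6%) were lower and 0 higher in shRNA2 against shRNA1 cells, where 12.1% of all tested genes were lower and 4.03% higher. For shRNA1 against scramble 13 members were higher, beside 3.83% of all tested genes, and 0 lower, beside 5.15%. For shRNA2 against scramble 10 members were lower, beside 14.4% of all tested genes, and 1 higher, beside 4.84%. For the mean of both hairpins against scramble 3 members were higher and 3 lower, beside 4.19% and 9.56%, and the median of the members was 0.00. Unadjusted values are given only as a description next to the counts of 0, since earlier results of these data were known when the members were chosen. All 33 tested members are protein-coding, as are 10113 of the 18162 tested genes.

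Separation of the groups ran the same way in the comparisons that involve shRNA1 cells. In shRNA2 against shRNA1 cells, both shRNA2 libraries lay below both shRNA1 libraries for 30 of the 33 tested members, where this held for 60.7% of tested protein-coding genes; the opposite held for 0 members and 12.9% of those genes. AMPH, UNC13B and NRXN3 were the 3 members that overlapped. In shRNA1 against scramble cells 17 members lay higher without overlap, beside 13.2% of protein-coding genes, and 1, CPLX1, lay lower, beside 21.0%. In shRNA2 against scramble cells 18 members (54.5%) lay lower, beside 44.3%, so this share was not far above that of protein-coding genes. In the other direction 4 members (12.1%) lay higher, beside 6.03%. Those 4 (SYT1, SLC17A6, ERC2 and NRXN3) also lay above scramble in both shRNA1 libraries. Of protein-coding genes, 2.72% lay above scramble in all hairpin libraries. CPLX1 was the 1 tested member below scramble in all of them, beside 15.2% of those genes.

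With the GC trend removed, more members were called. In shRNA2 against shRNA1 cells 20 members fell and 0 rose at an adjusted p under 0.05, beside 9.82% and 8.73% of the 10062 genes tested. In shRNA1 against scramble cells 14 rose and 0 fell, beside 3.74% and 4.24%. In shRNA2 against scramble cells 6 fell and 3 rose, beside 9.14% and 7.17%, and for the mean of both hairpins 8 rose and 3 fell, beside 4.37% and 6.07%. Leaving out 1 library at a time moved both these counts and the share of all genes called. In shRNA2 against shRNA1 cells 23 members were called lower without either scramble library, beside 16.7% and 16.8% of genes, and 10 to 12 without a hairpin library, beside 2.14% to 2.83%; 0 were called higher in any of these fits. In shRNA1 against scramble cells 0 to 19 were called higher, beside 0.199% to 7.19% of genes, and 0 to 1 lower, beside 0.308% to 8.61%; both counts were 0 when either shRNA1 library was left out. In shRNA2 against scramble cells 3 to 7 were called lower, beside 2.22% to 14.3%, and 0 to 4 higher, beside 1.56% to 11.3%. For the mean of both hairpins 0 to 9 were called higher, beside 1.34% to 7.05%, and 2 to 3 lower, beside 1.67% to 10.5%. Called in the full fit and in all 6 of these fits were CPLX2, RAB3A, RAB3C, SNAP25, SNAP91, SV2A, SYP, SYT13 and SYT4, lower in shRNA2 against shRNA1 cells; CPLX2, SV2A and SYT4, lower in shRNA2 against scramble cells; CPLX2 and SYT4, lower for the mean of both hairpins; and none of the rises against scramble. The medians of the members became -0.03 (shRNA2 against scramble), 0.15 (shRNA1 against scramble) and -0.20 (shRNA2 against shRNA1). Over all 10062 genes the same medians became 0.002, 0.00 and 0.001, since the GC step also re-centred each library. In shRNA2 against scramble cells 20 of 33 members had negative values, beside 4957 of the 10062 genes. On the deposited values 27 of 33 were negative there, beside 8255 of 10113 protein-coding genes, about the same share. How much of a gene's shift between the fits came from GC content and how much from re-centring was not tested. The comparison of each hairpin with scramble shares the scramble libraries, so the 2 sets of calls are not independent of each other. Testing protein-coding genes alone, with no GC step, called 4 members lower in shRNA2 against scramble cells (SYT4, CPLX1, CPLX2 and SV2A, beside 3.27% of genes) and 8 lower in shRNA2 against shRNA1 cells (those 4 with SYT13, SNAP25, SYN3 and SNAP91, beside 2.03%).

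**Figure D3:**
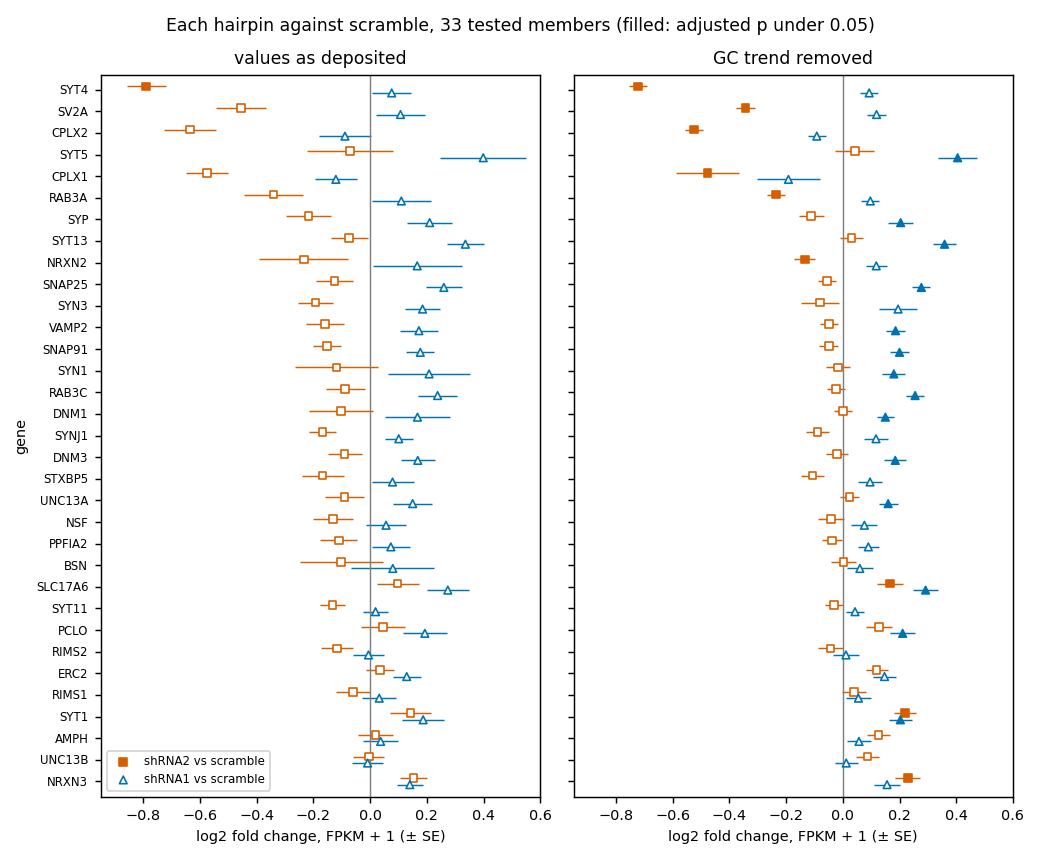
Log2 fold change of FPKM + 1 (± SE of the fit) for the 33 tested genes, in shRNA2 against scramble (squares) and shRNA1 against scramble (triangles), from the deposited values (left) and with the GC trend removed (right); filled symbols passed an adjusted p of 0.05. On the left 1 square, SYT4, is filled; on the right 9 squares and 14 triangles are, and the squares of SYT4, CPLX2, CPLX1 and SV2A lie furthest below 0.

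The calcium sensor group was led by SYT4, a synaptotagmin of dense-core vesicles that itself binds calcium poorly (chr18:43267878-43277650, GENCODE v29). SYT4 stood at 4.58 and 4.72 FPKM in shRNA2 libraries, 9.28 and 9.31 in shRNA1 libraries, and 9.32 and 8.24 in scramble libraries. Both shRNA2 libraries were near one level far below the other 4, which overlapped one another. SYT4 fell by 0.79 on the log2 scale in shRNA2 against scramble cells (SE 0.068, adjusted p = 0.0358). Against shRNA1 cells its change was -0.87 (adjusted p = 0.0976), and in shRNA1 against scramble cells 0.08 (adjusted p = 0.856). With the GC trend removed the change in shRNA2 cells was -0.72 against scramble (adjusted p = 1.49e-05) and -0.82 against shRNA1 (adjusted p = 3.18e-05), which tests the difference between the hairpins itself. Without 1 of the shRNA1 or shRNA2 libraries the call against scramble was lost on the deposited values (adjusted p 0.19 to 0.367), as it was with no filter, quantile normalization or a replicate block (adjusted p 0.0549 to 0.157), and kept with the GC trend removed (adjusted p of at most 0.000899).

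SYT11 is a relative of SYT4 that also binds calcium poorly. It stood at 12.8 and 12.7 FPKM in shRNA2 libraries, 14.4 and 14.2 in shRNA1 libraries, and 13.9 and 14.2 in scramble libraries. Its shRNA2 libraries were the lowest, with a difference of -0.13 against scramble (adjusted p = 0.215) and -0.15 against shRNA1 cells (adjusted p = 0.237), or -0.03 and -0.07 with the GC trend removed (adjusted p = 0.521 and 0.134). The ratio of SYT11 to SYT4 was 2.75 ± 0.0787 in shRNA2 libraries, 1.54 ± 0.0194 in shRNA1 libraries and 1.61 ± 0.162 in scramble libraries (SD, n = 2). SYT1, the calcium sensor of fast synchronous release, stood at 11.8 and 11.6 FPKM in shRNA2 libraries, 12.17 and 12.05 in shRNA1 libraries, and 11.3 and 9.79 in scramble libraries, higher without overlap in both hairpin groups. SYT1 passed no test on the deposited values (0.14 with an adjusted p of 0.358 for shRNA2, 0.19 and 0.556 for shRNA1), and with the GC trend removed it rose by 0.22 in shRNA2 and 0.20 in shRNA1 against scramble cells (adjusted p = 0.0118 and 0.0251).

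SYT13 and SYT5 were high in shRNA1 cells. SYT13, a synaptotagmin without calcium binding, had 4.25 and 4.20 FPKM in shRNA2 libraries, 5.97 and 5.91 in shRNA1 libraries, and 4.24 and 4.78 in scramble libraries. SYT13 rose by 0.36 in shRNA1 against scramble cells once the GC trend was removed (adjusted p = 0.00394; 0.34 and 0.301 on the deposited values). It fell by 0.33 in shRNA2 against shRNA1 cells in that fit (adjusted p = 0.00227), beside a difference of -0.41 on the deposited values (adjusted p = 0.135). SYT5, a calcium-binding synaptotagmin of dense-core vesicles, had 2.90 and 2.46 FPKM in shRNA2 libraries, 4.08 and 4.07 in shRNA1 libraries, and 2.32 and 3.46 in scramble libraries. Its scramble libraries were far apart, and on the deposited values its change of 0.40 in shRNA1 against scramble cells had an adjusted p of 0.544, against 0.0144 with the GC trend removed. SYT5 fell by 0.36 in shRNA2 against shRNA1 cells with the GC trend removed (adjusted p = 0.0109), and its difference on the deposited values was -0.47 (adjusted p = 0.257). DOC2A, a high-affinity calcium sensor of spontaneous release, did not pass the filter and stood between 0.411 and 0.569 FPKM.

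In the SNARE fusion machinery the complexins stood out in shRNA2 cells. CPLX2, the more abundant of both complexins, had 3.90 and 3.75 FPKM in shRNA2 libraries, 6.08 and 6.01 in shRNA1 libraries, and 5.88 and 7.16 in scramble libraries. CPLX1 had 1.199 and 0.983 FPKM in shRNA2 libraries, 1.82 and 1.905 in shRNA1 libraries, and 2.07 and 2.16 in scramble libraries. In both genes the shRNA2 libraries lay below the other 4, and the ratio of CPLX2 to CPLX1 stayed between 2.85 and 3.82 in all libraries. Neither passed on the deposited values: in shRNA2 against scramble cells CPLX2 changed by -0.64 (adjusted p = 0.0657) and CPLX1 by -0.58 (adjusted p = 0.0595). Once the GC trend was removed, CPLX2 fell by 0.53 (adjusted p = 6.77e-05) and CPLX1 by 0.48 (adjusted p = 0.0257); against shRNA1 cells CPLX2 fell by 0.43 (adjusted p = 0.000443), while CPLX1 changed by -0.29 (adjusted p = 0.111). CPLX1 is thinly covered, with about 190 to 403 reads in a library.

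SNAP25 and VAMP2, which zip into the fusion complex, were highest in shRNA1 cells. SNAP25 had 4.12 and 4.12 FPKM in shRNA2 libraries, 5.66 and 5.72 in shRNA1 libraries, and 4.86 and 4.33 in scramble libraries. With the GC trend removed SNAP25 rose by 0.28 in shRNA1 against scramble cells (adjusted p = 0.00424) and fell by 0.33 in shRNA2 against shRNA1 cells (adjusted p = 0.00099); the deposited values gave 0.26 (adjusted p = 0.381) and -0.39 (adjusted p = 0.137). VAMP2, with the values above, rose by 0.19 in shRNA1 against scramble cells and fell by 0.23 in shRNA2 against shRNA1 cells with the GC trend removed (adjusted p = 0.0157 and 0.00344; on the deposited values 0.17 and -0.33, adjusted p = 0.546 and 0.155). Of its exon bases, 13.2% are shared with a second protein-coding gene on the same strand.

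STXBP5 (tomosyn), an inhibitor of SNARE complex assembly, had 2.09 and 2.03 FPKM in shRNA2 libraries, 2.67 and 2.60 in shRNA1 libraries, and 2.64 and 2.25 in scramble libraries. STXBP5 fell by 0.20 in shRNA2 against shRNA1 cells with the GC trend removed (adjusted p = 0.0137; -0.25 and 0.24 on the deposited values), the same direction as the genes it opposes. NSF, the ATPase that takes used SNARE complexes apart, stood between 2.60 and 3.23 FPKM, and no comparison passed; NSF has near-identical copies in the genome, so its level is uncertain. STX1A, the membrane syntaxin, stood at 0.684 to 1.09 FPKM and VAMP1 at 0.69 to 0.876 FPKM; neither passed the filter, and 17.9% of STX1A exon bases are shared with BUD23 on the opposite strand.

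Among the vesicle proteins, SV2A separated shRNA2 cells most clearly. SV2A, a vesicle glycoprotein and the target of the antiepileptic drug levetiracetam, had 8.78 and 8.34 FPKM in shRNA2 libraries, 13.0 and 13.2 in shRNA1 libraries, and 11.1 and 13.2 in scramble libraries. On the deposited values SV2A changed by -0.46 in shRNA2 against scramble cells (adjusted p = 0.104) and by -0.56 against shRNA1 cells (adjusted p = 0.135). Both falls passed with the GC trend removed, at 0.34 (adjusted p = 0.000696) and 0.46 (adjusted p = 0.000382). RAB3A, the GTPase that tethers vesicles to RIM proteins, had 9.87 and 8.98 FPKM in shRNA2 libraries, 13.3 and 13.2 in shRNA1 libraries, and 11.0 and 13.5 in scramble libraries. RAB3A fell by 0.23 against scramble and by 0.33 against shRNA1 cells with the GC trend removed (adjusted p = 0.00318 and 0.00089; on the deposited values -0.34 and -0.45, adjusted p = 0.185 and 0.183).

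In SYP, SYN3 and RAB3C both shRNA1 libraries lay above the other 4, while in SYN1 they overlapped scramble. SYP (synaptophysin), a major membrane protein of the vesicle, had 5.26 and 5.40 FPKM in shRNA2 libraries, 7.61 and 7.44 in shRNA1 libraries, and 5.85 and 6.91 in scramble libraries. In the fit with the GC trend removed, SYP rose by 0.20 in shRNA1 against scramble cells and fell by 0.31 in shRNA2 against shRNA1 cells (adjusted p = 0.0343 and 0.00374; on the deposited values 0.21 and -0.43, adjusted p = 0.545 and 0.146). SYN1, the synapsin with the RE1 printed above, had 3.31 and 2.88 FPKM in shRNA2 libraries, 4.11 and 4.16 in shRNA1 libraries, and 2.85 and 4.12 in scramble libraries. The scramble libraries of SYN1 span nearly the whole range of the other 4, and its fall of 0.20 in shRNA2 against shRNA1 cells passed with the GC trend removed (adjusted p = 0.0159; -0.33 and 0.347 on the deposited values). SYN3 had 0.81 and 0.755 FPKM in shRNA2 libraries, 1.29 and 1.34 in shRNA1 libraries, and 1.05 and 1.03 in scramble libraries, a difference of -0.38 between shRNA2 and shRNA1 cells (adjusted p = 0.137, or -0.28 and 0.0276 with the GC trend removed). RAB3C, a relative of RAB3A, had 4.63 and 4.80 FPKM in shRNA2 libraries, 6.08 and 6.25 in shRNA1 libraries, and 5.41 and 4.76 in scramble libraries, and with the GC trend removed it fell by 0.28 in shRNA2 against shRNA1 cells (adjusted p = 0.0018; -0.33 and 0.168 on the deposited values).

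SLC17A6 was higher in both hairpin groups. It had 1.68 and 1.77 FPKM in shRNA2 libraries, 1.96 and 2.20 in shRNA1 libraries, and 1.64 and 1.45 in scramble libraries, with no overlap between any pair of groups. SLC17A6 rose by 0.17 in shRNA2 and by 0.29 in shRNA1 against scramble cells with the GC trend removed (adjusted p = 0.0428 and 0.0112; on the deposited values 0.10 and 0.27, adjusted p = 0.52 and 0.421). SYNPR, a relative of SYP, was too low for the filter: it had 0.0487 and 0.0736 FPKM in shRNA2 libraries, 0.076 and 0.0864 in shRNA1 libraries, and 0.191 and 0.168 in scramble libraries, about 17 to 55 reads in each. Both hairpin groups lay below scramble, and with no filter its log2 change in shRNA2 against scramble cells was -0.15 (adjusted p = 0.154). The ratio of SYP to SYNPR was 90.7 ± 24.4 in shRNA2 libraries, 93.1 ± 9.96 in shRNA1 libraries and 35.9 ± 7.41 in scramble libraries (SD, n = 2). SV2C stood at 0.851 to 1.09 FPKM, SYN2 at 0.413 to 0.69 and SV2B at 0.0516 to 0.0846.

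The active zone scaffolds and priming factors had the smallest median difference between the hairpins among the 6 roles. Of the 8 tested, 7 had negative values in shRNA2 against shRNA1 cells, beside 7813 of 10113 protein-coding genes. The median of the 8 was -0.13 (-0.06 with the GC trend removed). With the GC trend removed 2 were called lower, UNC13A and PPFIA2, beside 9.82% of all genes. UNC13A, which opens syntaxin for priming, had 4.42 and 4.32 FPKM in shRNA2 libraries, 5.38 and 5.30 in shRNA1 libraries, and 4.404 and 5.03 in scramble libraries, and fell by 0.14 in shRNA2 against shRNA1 cells with the GC trend removed (adjusted p = 0.0302; -0.24 and 0.231 on the deposited values). Its relative UNC13B had 3.02 and 2.94 FPKM in shRNA2 libraries, 2.99 and 2.95 in shRNA1 libraries, and 2.92 and 3.06 in scramble libraries, and the 3 groups overlapped. PPFIA2 (liprin-alpha-2), a scaffold of the active zone, fell by 0.13 in shRNA2 against shRNA1 cells with the GC trend removed (adjusted p = 0.0439; -0.18 and 0.282 on the deposited values), and 19.7% of its exon bases lie under ACSS3 on the opposite strand.

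PCLO (piccolo) had 5.21 and 5.37 FPKM in shRNA2 libraries, 5.89 and 6.03 in shRNA1 libraries, and 5.51 and 4.70 in scramble libraries. PCLO rose by 0.21 in shRNA1 against scramble cells with the GC trend removed (adjusted p = 0.0321; 0.19 and 0.563 on the deposited values). BSN (bassoon), its partner in the scaffold, had 3.98 and 3.58 FPKM in shRNA2 libraries, 4.45 and 4.39 in shRNA1 libraries, and 3.42 and 4.95 in scramble libraries, and passed in no comparison under either fit. ERC2, which links RIM proteins into the scaffold, had 3.81 and 3.93 FPKM in shRNA2 libraries, 4.22 and 4.17 in shRNA1 libraries, and 3.73 and 3.77 in scramble libraries. For the mean of both hairpins against scramble ERC2 rose by 0.13 with the GC trend removed (adjusted p = 0.0444; 0.08 and 0.487 on the deposited values). RIMS1 and RIMS2, which join vesicle-bound RAB3 to calcium channels, stood at 2.19 to 2.46 and 2.99 to 3.49 FPKM and passed in no comparison. RIMBP2, which binds RIM proteins and calcium channels, was just under the filter with 0.672 and 0.663 FPKM in shRNA2 libraries, 1.10 and 0.999 in shRNA1 libraries, and 0.903 and 1.15 in scramble libraries. RPH3A (rabphilin), a RAB3 effector, stood at 0.177 to 0.331 FPKM.

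Of the 5 endocytosis genes, 4 fell in shRNA2 against shRNA1 cells with the GC trend removed, beside 9.82% of all genes, and AMPH did not. SNAP91 (AP180), a clathrin assembly protein, had 6.35 and 6.29 FPKM in shRNA2 libraries, 8.02 and 8.37 in shRNA1 libraries, and 7.06 and 7.21 in scramble libraries. The 3 groups of SNAP91 did not overlap, and with the GC trend removed it fell by 0.25 in shRNA2 against shRNA1 cells (adjusted p = 0.00297; -0.33 and 0.129 on the deposited values) and rose by 0.20 in shRNA1 against scramble cells (adjusted p = 0.0135; 0.18 and 0.423 on the deposited values). DNM1 and DNM3, dynamins that cut the vesicle neck, and SYNJ1, the lipid phosphatase of uncoating, fell by 0.15, 0.20 and 0.21 in shRNA2 against shRNA1 cells in the same fit (adjusted p = 0.0165, 0.0096 and 0.0127; on the deposited values -0.27, -0.26 and -0.27, adjusted p = 0.331, 0.183 and 0.14). AMPH (amphiphysin), which recruits dynamin, had 5.63 and 5.92 FPKM in shRNA2 libraries, 6.01 and 5.70 in shRNA1 libraries, and 5.46 and 5.91 in scramble libraries, and all groups overlapped.

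The 2 neurexins, presynaptic adhesion receptors, differed in pattern. NRXN3 had 9.51 and 9.36 FPKM in shRNA2 libraries, 9.42 and 9.28 in shRNA1 libraries, and 8.29 and 8.49 in scramble libraries. Both hairpin groups lay above scramble and overlapped each other, and with the GC trend removed NRXN3 rose by 0.23 in shRNA2 against scramble cells (adjusted p = 0.0146; 0.15 and 0.185 on the deposited values) and was at 0.16 in shRNA1 against scramble cells (adjusted p = 0.0753). NRXN2 had 5.82 and 5.27 FPKM in shRNA2 libraries, 7.62 and 7.62 in shRNA1 libraries, and 5.53 and 8.05 in scramble libraries. Its scramble libraries enclosed both shRNA1 libraries, and with the GC trend removed NRXN2 fell by 0.25 in shRNA2 against shRNA1 cells (adjusted p = 0.00453; -0.40 and 0.311 on the deposited values) and by 0.13 in shRNA2 against scramble cells (adjusted p = 0.0477; -0.23 and 0.469).

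The difference between the hairpins tended to be larger in shorter genes. Over the 33 tested members, the log2 fold change in shRNA2 against shRNA1 cells had a Spearman correlation of 0.70 with gene span (0.65 with the GC trend removed), against 0.14 and 0.05 over the 10062 protein-coding genes; genes within a library share its depth and base composition and are not independent points. The 17 members of up to 117.0 kb had a median of -0.40 (-0.29 with the GC trend removed, 14 of them called lower). The 16 longer members had a median of -0.17 (-0.07 with the GC trend removed, 6 called lower). In that fit 9.82% of all genes were called lower. SYT4 spans 9.8 kb and SV2A 14.6 kb, whereas NRXN3 spans 1697.9 kb and ERC2 960.1 kb. Roles and spans go together here, since 7 of the 8 tested scaffold and priming genes are among the longer members, so the 2 cannot be told apart in these members.

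**Figure D4:**
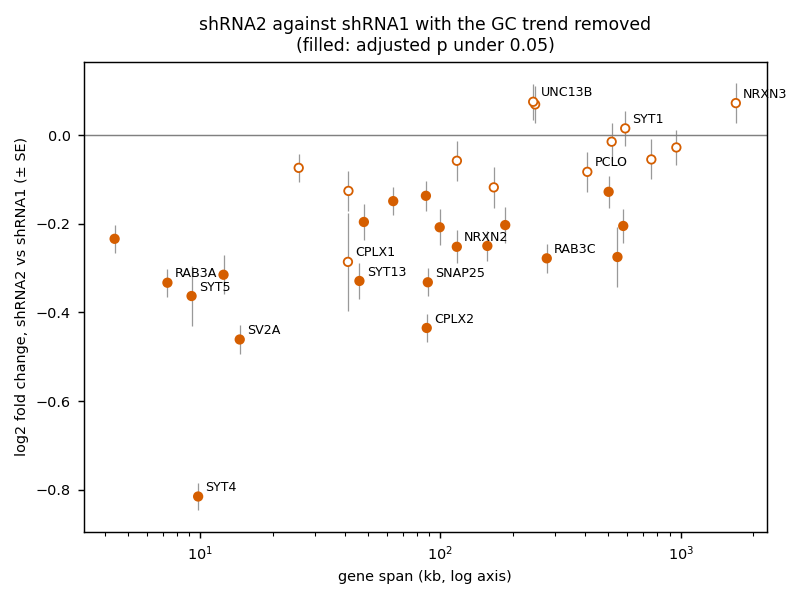
Log2 fold change in shRNA2 against shRNA1 cells with the GC trend removed (± SE of the fit, vertical axis) against gene span in kb (log axis) for the 33 tested genes; filled points passed an adjusted p of 0.05. SYT4, SV2A, SYT5 and RAB3A at the short end lie well below 0, CPLX2 is low at mid span, and SYT1, PCLO and NRXN3 at the long end lie near 0.

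General neuron markers had the same order of groups as the presynaptic genes. The summed FPKM of 20 neuron markers was 569 and 563 in shRNA2 libraries, 660 and 661 in shRNA1 libraries, and 614 and 623 in scramble libraries. Of the 19 tested, 18 had negative values in shRNA2 against shRNA1 cells, beside 7813 of 10113 protein-coding genes. Their median was -0.20, beside -0.27 for the presynaptic genes (-0.105 and -0.203 with the GC trend removed). In shRNA1 against scramble cells the medians were 0.135 and 0.14 in the same order (0.152 and 0.147 with the GC trend removed). With that trend removed 7 neuron markers fell and 1 rose in shRNA2 against shRNA1 cells, beside 9.82% and 8.73% of all genes. The summed FPKM of 20 neural progenitor markers was 342 and 334 in shRNA2 libraries, 310 and 312 in shRNA1 libraries, and 342 and 360 in scramble libraries. Of the 19 tested, 12 rose and 1 fell in shRNA2 against shRNA1 cells with the GC trend removed, beside 8.73% and 9.82% of all genes. The sum of 9 mesenchymal and endothelial markers was 0.675 and 0.495 FPKM in shRNA2 libraries, 1.36 and 1.23 in shRNA1 libraries, and 5.76 and 6.51 in scramble libraries, that of 7 choroid plexus markers 15.8 and 16.6, 13.2 and 13.4, and 20.2 and 21.5 FPKM in the same order, and that of 8 astrocyte markers 12.2 and 12.3, 12 and 11.8, and 18.3 and 17.7 FPKM. Within the choroid plexus sum, OTX2 was higher in shRNA2 than in scramble libraries, while TTR was lower. The part of these shifts in cell markers in the presynaptic result was not tested.

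A further list of 88 presynaptic genes, 63 of them past the filter, had medians of -0.13 in shRNA2 against scramble, 0.04 in shRNA1 against scramble and -0.17 in shRNA2 against shRNA1 cells, and none was called on the deposited values. SYT10, RIMS4 and PTPRD had the smallest p in shRNA2 against scramble cells. SYT10, a synaptotagmin, stood at 0.758 and 0.658 FPKM in shRNA2 libraries, 1.02 and 1.05 in shRNA1 libraries, and 1.55 and 1.38 in scramble libraries, a change of -0.53 in shRNA2 against scramble cells (adjusted p = 0.064). RIMS4, a short RIM protein, had 3.31 and 3.10 FPKM in shRNA2 libraries, 4.94 and 5.10 in shRNA1 libraries, and 4.43 and 5.42 in scramble libraries (-0.49, adjusted p = 0.0995), and PTPRD, an adhesion receptor, changed by -0.30 (adjusted p = 0.0855). RAB3B, a relative of RAB3A, had the smallest p between the hairpins (-0.37, adjusted p = 0.133). With the GC trend removed, of 62 tested, 18 fell and 0 rose in shRNA2 against shRNA1 cells, beside 9.82% and 8.73% of all genes. RIMS4 (-0.40) and RAB3B (-0.30) were among those that fell. In shRNA2 against scramble cells 11 fell and 0 rose, beside 9.14% and 7.17%. In shRNA1 against scramble cells 7 rose and 2 fell, beside 3.74% and 4.24%.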

How the data were processed

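RNA-seq was made from total RNA of day 26 cells after ribosomal RNA depletion (RiboMinus) with KAPA RNA HyperPrep libraries, per the labels' protocols. The deposited table holds 1 FPKM value per gene and library, per the file headers. The build GRCh38 (hg38) and the tools HISAT2 2.1.0, featureCounts 2.0.1, SAMtools 1.9 and Trimmomatic 0.39 are named per the submitters' processing notes. For annotation, strand and multi-mapped reads settings were not given in the sources used here, so overlapping and antisense genes are uncertain.

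Values were analysed as log2(FPKM + 1), which understates the change of low genes, for genes whose mean reached 1 FPKM. All 3 groups entered 1 fit of limma 3.58.1 under R 4.3.3, with a mean-variance trend across all tested genes; Benjamini-Hochberg adjustment ran over all of them, with calls at an adjusted p under 0.05. The fit was checked on data made with known changes. The 4 comparisons were the mean of both hairpins, shRNA1 and shRNA2 against scramble, and shRNA2 against shRNA1. The GC trend was removed in each library by loess (span 0.3) of a gene's deviation from its mean on transcript GC, over 10062 protein-coding genes. The whole fitted curve was subtracted, its level included, so the step also re-centred each library. Read totals, spans, exon overlaps and GC come from GENCODE v29 (1-based), so read numbers per gene are approximate. The members, lists and roles were chosen with earlier results of these data known. All members were reported; of the further presynaptic genes, those called or the 3 with the smallest p. It is not known whether equal replicate numbers pair the libraries, and the main fit did not pair them. Alternatives were another pseudocount, filters, scalings, protein-coding genes only, a replicate block and leaving out each library. Tables and figures used pandas 2.3.3, numpy 2.4.6 and matplotlib 3.10.9 in Python 3.11.15.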

Additional observations from a re-analysis of the deposited data

How the results depend on the processing

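The median of the tested members kept its sign in shRNA1 against scramble, shRNA2 against scramble and shRNA2 against shRNA1 under every alternative run. For the mean of both hairpins it moved around 0 (-0.004): 0.058 with the GC trend removed (also with the replicate block), 0.033 with median-of-ratios scaling and 0.046 with quantile normalization. In shRNA2 against scramble (-0.117) it was -0.032 with the GC trend removed (also with the block), -0.152 at a minimum mean of 5 FPKM, -0.052 with median-of-ratios scaling, -0.049 with quantile normalization and -0.147 with a pseudocount of 0.1. In shRNA1 against scramble (0.14) it was 0.166 at the 5 FPKM minimum and 0.096 with no filter. In shRNA2 against shRNA1 (-0.269) it was -0.203 with the GC trend removed (also with the block), -0.329 at the 5 FPKM minimum, -0.2 with median-of-ratios scaling, -0.187 with no filter, -0.339 with a pseudocount of 0.1 and -0.212 with quantile normalization.

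Leaving out 1 library at a time, with and without the GC step, medians ranged from -0.033 to 0.069 for the mean of both hairpins, 0.106 to 0.156 for shRNA1 against scramble, -0.147 to -0.022 for shRNA2 against scramble and -0.275 to -0.174 for shRNA2 against shRNA1. Members called ranged over 0 to 12, 0 to 20, 0 to 10 and 0 to 23 in the same order. On the deposited values, leaving out either scramble library gave 14 lower calls in shRNA2 against shRNA1, where all 6 libraries gave 0, beside 4.53% and 4.72% of all genes; for shRNA2 against scramble it gave 8 lower and 1 higher without replicate 1 (beside 11.5% and 1.77%) and 3 lower without replicate 2 (beside 2.17%). With the GC step, leaving out either shRNA1 library gave 0 calls in shRNA1 against scramble, beside 0.199% to 0.338% of genes in each direction; the lone library is assumed to vary like the other groups.

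In shRNA2 against scramble, 4 members were called lower among protein-coding genes only, beside 3.27% of genes, and 2 at the 5 FPKM minimum. Calls were 0 with no filter, quantile normalization, the replicate block or the crossed block, where the SYT4 call was lost (adjusted p 0.0549 to 0.157). In shRNA2 against shRNA1, 8 members were called lower among protein-coding genes only, beside 2.03% of genes, and 1 at the 5 FPKM minimum. No share of all genes was computed at the 5 FPKM minimum. With the GC trend removed the 4 counts were 11 (both hairpins), 14 (shRNA1), 9 (shRNA2) and 20 (shRNA2 against shRNA1). With the replicate block added they were 6, 8, 7 and 18. No share of all genes was computed with the block, so these last counts lack a background. Whether equal replicate numbers mark a shared culture or batch is not stated. The correlation of replicate differences was 0.012 between shRNA2 and shRNA1, -0.15 between shRNA2 and scramble and -0.008 between shRNA1 and scramble. These values cannot settle it, since the differences within scramble and within shRNA2 followed GC content. The block fit of the deposited values called 0 members in each comparison, as did the crossed pairing. SYN3 for the mean of both hairpins was at -0.004, and leaving out 1 library gave -0.048 to 0.164, the upper end passing the test (adjusted p = 0.0308, without scramble replicate 1 and with the GC trend removed); the cause was not tested. Of single-gene values under the alternatives other than the GC step and the crossed block, 1583 kept their side of the threshold, 54 newly passed it and 7 no longer did; under those added after seeing the data (GC step, crossed block) the counts were 893, 293 and 1. The 2 libraries per group limit every test, and reads limit SLC17A7, SV2B and SYNPR.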
